A study of Drosophila melanogaster with 27 samples.

Results

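The genes described here make, move and destroy ecdysteroids, the steroid hormones that drive insect molting and metamorphosis. Their members were the probe sets whose platform annotation gave *phm*, *dib*, *sad*, *shd*, *Cyp18a1* or *E23* as the only gene symbol. There were 6 such probe sets among the 13966 on the array, and they covered 5 of the 6 genes. *dib*, *sad*, *shd* and *Cyp18a1* had 1 probe set each and *E23* had 2, called here the brighter and the dimmer. None carried *phm*, which was not analysed here. RNA came from whole *w1118* animals of *Drosophila melanogaster*, hybridized to 27 Affymetrix *Drosophila* Genome Arrays, 3 for each of 9 stages. The stages were -18 and -4 h (larvae of the last instar), 0, 2, 4, 6, 8 and 10 h (prepupae) and 12 h (pupae) relative to pupariation, the formation of the puparium. All groups shared the genotype, and the labels name no agent apart from a gut dye, 0.05% bromophenol blue in the food, by which the larvae were staged. Wandering larvae with dark blue guts made up the -18 h group and wandering larvae with clear guts the -4 h group.

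Ecdysone is made from dietary sterols in the prothoracic gland, a part of the ring gland, by the cytochrome P450 enzymes of the Halloween group. *dib* and *sad* encode the mitochondrial enzymes of the final steps there, and *shd* encodes the enzyme that turns ecdysone into the active hormone 20-hydroxyecdysone (20E) in peripheral tissues such as midgut, Malpighian tubule and fat body. *Cyp18a1* encodes a P450 enzyme that oxidises the side chain of 20E and so inactivates it, and *E23*, the gene of an early puff of the salivary gland chromosomes, encodes an ABC transporter. In this period a large pulse of 20E surrounds pupariation and a smaller one comes near 10 h, with a low titer between them.

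Each sample was RNA of 10 whole animals, so fewer cells of a type and less RNA per cell cannot be told apart. Array medians lay between 249.4 and 277.3 intensity units. Within a stage, arrays correlated at 0.947 or higher from 0 h on and at 0.845 or higher in larvae. The arrays that deviated most were -18 h replicate 2 and, among those of -4 h, replicate 1, whose deviations from their stages correlated with each other (0.81 over 12854 probe sets). Where leaving them out changed a call of a member, the value without them is given beside it. Markers of salivary gland (6 of 6), midgut (5 of 5), muscle (4 of 5), fat body (3 of 5), Malpighian tubule (2 of 3), hemocytes (3 of 3) and testis (5 of 5) were measured, and none was at or below the floor throughout any stage. Of the glands next to the prothoracic gland, the corpora cardiaca gene *Akh* gave 374.7 to 635.2 units, while *jhamt*, a corpora allata gene, was below the floor of 60.26 units on every array. Brightness depends on the probes, so each probe set was compared only with itself over the stages.

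All 6 probe sets changed over the 9 stages. The call was set at a limma F-test adjusted p under 0.1 with stage means at least 1.5-fold apart, which 49.5% of the 12854 probe sets tested also met. *Cyp18a1* had the widest span of the 6 at 11-fold (adjusted p = 7.1e-11), measured against a stage near the floor, followed by *shd* at 3.24-fold (8.5e-08) and the brighter and dimmer probe sets of *E23* at 2.47-fold (0.019) and 1.97-fold (8.8e-05). *sad* spanned 1.72-fold (0.0041) and *dib* 1.57-fold (0.00034). A span of at least 2-fold was met by 27.2% of all probe sets tested and by 3 of these 6. The highest stages were spread over the time course, at -4 h for *shd* and both *E23* probe sets, at 0 h for *sad* and at 8 h for *dib* and *Cyp18a1*.

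**Figure D1:**
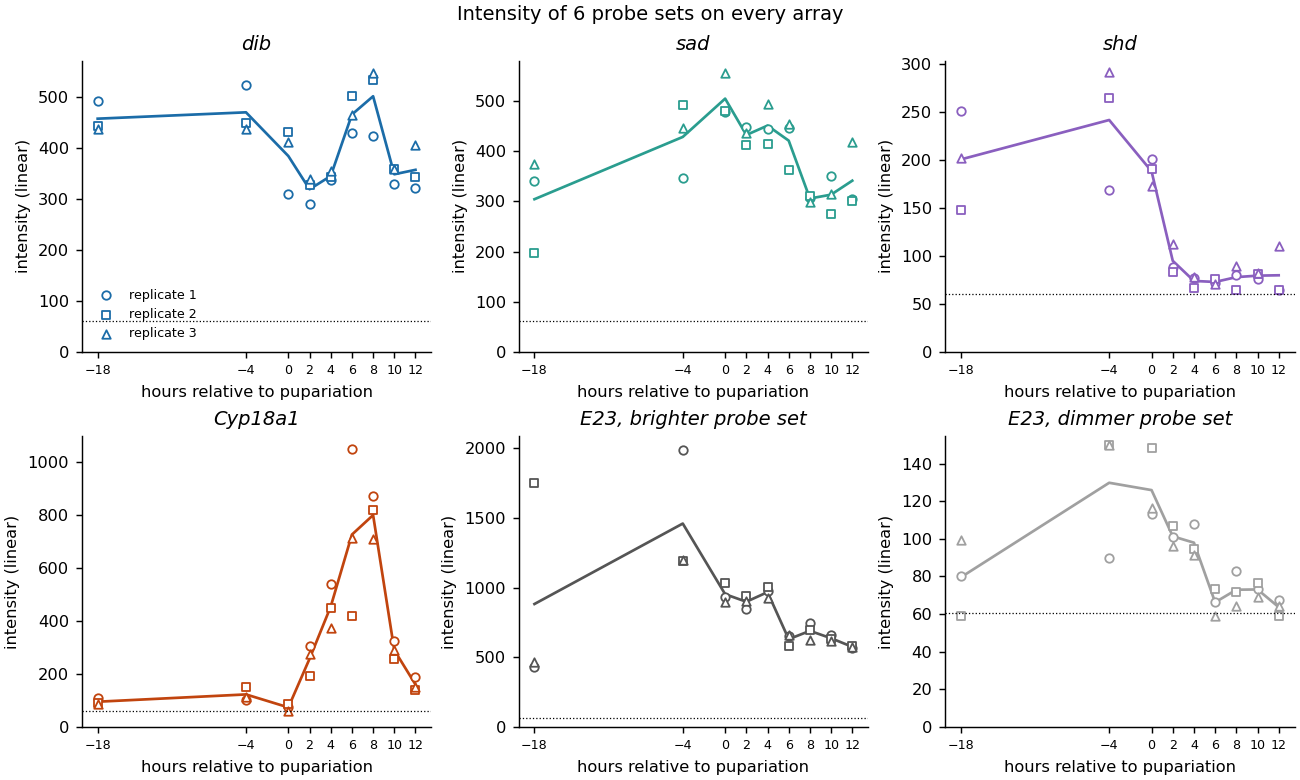
Intensity (linear units) against hours relative to pupariation for the 6 probe sets, with 1 symbol per array, a line through the stage means and a dotted line at the floor of 60.26. *Cyp18a1* peaked at 6 and 8 h, *shd* was low from 2 h on, and the brighter *E23* probe set was highest on -18 h replicate 2 and -4 h replicate 1.

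Of the synthesis genes, *dib* encodes the hydroxylase that precedes the product of *sad*. It had 2 high phases, in larvae and in mid prepupae. Its intensity was 493, 443 and 438 in the 3 arrays of -18 h, 525, 449.96 and 437 at -4 h, 311, 432 and 411 at 0 h, and 291, 328 and 339 at 2 h. It was 338, 343 and 355 at 4 h, 430.05, 503 and 466 at 6 h, 425, 535 and 547 at 8 h, 329.85, 358 and 358 at 10 h, and 321, 344 and 407 at 12 h. Every array of 6 and 8 h thus lay above every array of 2, 4, 10 and 12 h, and the larval arrays did so as well. In descending order of the means, 8, -4, 6 and -18 h overlapped with their neighbours, -18 h stood clear of 0 h, and 0, 12, 10, 4 and 2 h overlapped again.

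The steps of *dib* were small and precise. It was 1.35-fold higher at 6 h (466 ± 36.3, mean ± SD, n = 3) than at 4 h (345 ± 8.5), with a log2 change of 0.43 (SE 0.12) and an adjusted p of 0.057. The 10 h arrays (349 ± 16.4) did not overlap the 8 h arrays (502 ± 67.5), with a log2 change of -0.52 (SE 0.12, adjusted p = 0.0093), or 1.43-fold. Both values stayed under the 1.5-fold limit and were therefore not called. Without 8 h replicate 1 the second passed, at -0.63 (adjusted p = 0.0033). Without 2 h replicate 1 or 8 h replicate 3 the span of *dib* over the stages was itself just short of the fold limit. Between -4 and -18 h *dib* differed by a log2 value of 0.04 only, with a 95% interval of -0.22 to 0.3.

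*sad*, whose product makes ecdysone, had its highest mean at pupariation, and its means from -4 to 6 h lay above those of the other stages. The arrays gave 340.4, 198 and 376 at -18 h, 347, 493 and 447 at -4 h, 479, 481 and 556 at 0 h, 449, 412 and 437 at 2 h, and 446, 415 and 494 at 4 h. They gave 447, 362 and 455 at 6 h, 308, 311 and 299 at 8 h, 350.04, 276 and 315 at 10 h, and 306, 300.3 and 419 at 12 h. Each array of 0 h was above each array of -18, 2, 6, 8, 10 and 12 h. No neighbouring pair in the order of means (0, 4, 2, -4, 6, 12, 10, 8 and -18 h) was free of overlap.

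*sad* rose 1.72-fold between the 0 h arrays (505 ± 43.5) and the -18 h arrays (305 ± 94.3), with a log2 change of 0.78 (SE 0.18) and an adjusted p of 0.0015. At this comparison 33.4% of all probe sets were called, as were 2 of the 6 members. Replicate 2 of -18 h carried the low value of 198, and without it the change was 0.5 (adjusted p = 0.013) and was not called. With array weights it was 0.39 and likewise below the fold limit. Between -4 and -18 h the change was 0.53 (SE 0.18, adjusted p = 0.043), below the fold limit. Without -18 h replicate 2 it was 0.25 (adjusted p = 0.27), and without both deviating larval arrays 0.39 (adjusted p = 0.05). It was called when -18 h replicate 1 (0.64) or replicate 3 (0.71) was left out, and likewise for -4 h replicate 1 (0.68). At 8 h *sad* (306 ± 6.62) stood 1.37-fold below 6 h (421.5 ± 51.7), with no overlap, while *dib* was at its highest. This step of *sad* was not called (log2 change -0.46, adjusted p = 0.2), and neither was 12 h against 0 h (-0.58, adjusted p = 0.028, 1.49-fold). The change at 12 h passed when replicate 1 (-0.62) or 2 (-0.61) of 0 h, or 12 h replicate 3 (-0.73), was left out, and also under median scaling (-0.6) and array weights (-0.69). At 10 h against -4 h *sad* changed by -0.44 (adjusted p = 0.092), and by -0.59 with a call once -4 h replicate 1 was left out.

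*shd* was on in larvae and at pupariation and close to the floor afterwards. Its arrays gave 251, 148 and 202 at -18 h, 169, 264 and 292 at -4 h, and 201, 190.4 and 173 at 0 h. They gave 88.6, 83.5 and 112 at 2 h, 76.3, 66.8 and 78.1 at 4 h, and 71.4, 76 and 70.6 at 6 h. From 8 to 12 h they lay between 64.2 and 109.7. The 9 arrays from -18 to 0 h were all above the 18 arrays from 2 to 12 h. Within each of these blocks the stages overlapped with their neighbours in the order of means, and the break lay between 0 and 2 h.

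The fall of *shd* was called at this 1 step. At 2 h it stood at 94.7 ± 15.2, against 188 ± 13.9 at 0 h (log2 change -1, SE 0.21, adjusted p = 0.0059), which is 2-fold lower. At that step 2.64% of all probe sets were called and 2 of the 6 members, with *Cyp18a1* moving the other way. At 6 h *shd* was 2.58-fold lower than at 0 h (adjusted p = 3.5e-05), and at 10 h 2.97-fold lower than at -4 h (adjusted p = 4e-06). Without both deviating larval arrays the log2 change at 10 h against -4 h was -1.81 in place of -1.57. Since the values from 4 h on lie near the floor, these folds may understate the change. Over the same interval the summed intensity of the 5 midgut markers was 4354 to 6673 at 2 h, against 10640 to 13670 at 0 h, after 64640 to 66000 at -18 h. The 2 measured Malpighian tubule markers summed to 357.7 to 401 at 2 h, against 359.6 to 434.3 at 0 h, and the 3 fat body markers to 50270 to 52330 at 2 h, against 51440 to 52500 at 0 h. The part of these tissues in the result was not tested.

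Beyond the members, the list of ecdysteroid biosynthesis enzymes held 9 genes, of which 6 had a probe set and 5 passed the filter. Between stages 4 of these 5 changed, against 49.5% of all probe sets tested. Besides *dib*, *sad* and *shd* this was *sro* (shroud, a short-chain dehydrogenase of an early step), which was highest at -4 h (370.2) and lowest at 6 h (207), a span of 1.78-fold (adjusted p = 1.8e-06). *sro* was 1.57-fold lower at 10 h than at -4 h (adjusted p = 6.5e-05). *Cyp6t3*, another P450 gene, gave 443 to 485 units as stage means and did not pass (adjusted p = 0.96). At the 8 consecutive steps, with 2.64% to 13.5% of all probe sets called, the only call in this list was that of *shd* at 2 h.

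**Figure D2:**
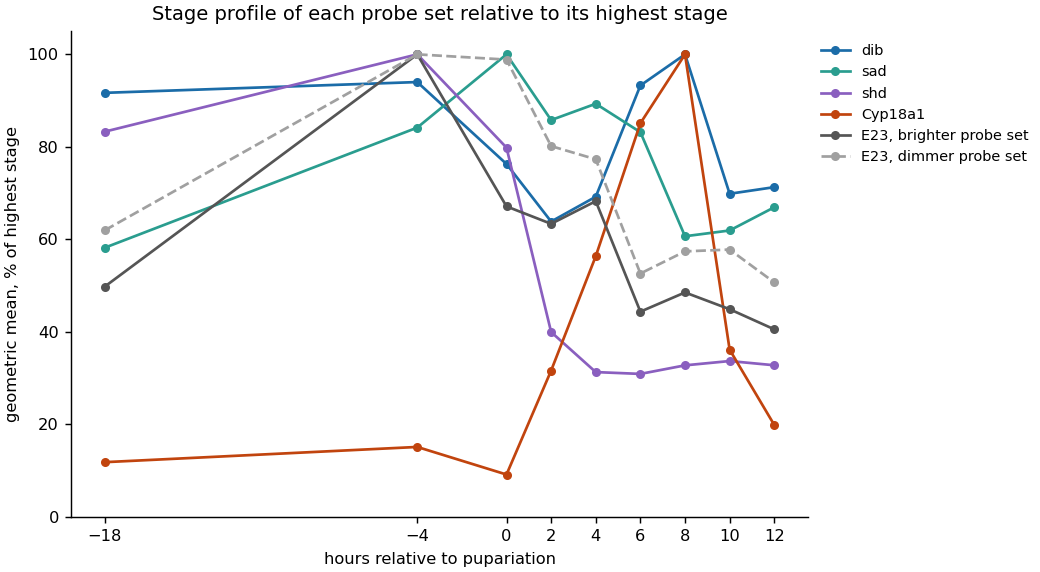
Geometric mean of each probe set at each stage, as a percentage of its highest stage, against hours relative to pupariation. *shd* stood at 39.9% at 2 h and *Cyp18a1* at 9.12% at 0 h, while the lowest stage of *dib* stood at 63.8% and that of *sad* at 58.2%.

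*Cyp18a1*, the inactivating enzyme, was near the floor at pupariation, high in mid prepupae and low again in pupae. Its arrays gave 107.5, 88 and 87.3 at -18 h, 102, 152 and 112 at -4 h, and 73.5, 86.2 and 59 at 0 h. They gave 305, 190.3 and 274 at 2 h, 538, 448 and 373 at 4 h, and 1046, 417 and 709.97 at 6 h. At 8 h they gave 870.2, 816 and 708, at 10 h 324, 254 and 288, and at 12 h 187, 139 and 151. All arrays of 2, 4, 6, 8 and 10 h were above all larval arrays and those of 0 h. In the order of means (8, 6, 4, 10, 2, 12, -4, -18 and 0 h) the breaks without overlap lay between 4 and 10 h, between 2 and 12 h and between -18 and 0 h.

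From 0 to 6 h *Cyp18a1* rose 9.33-fold (725 ± 315 at 6 h, against 72.9 ± 13.6 at 0 h), with a log2 change of 3.22 (SE 0.25, 95% interval 2.71 to 3.73) and an adjusted p of 7.5e-10. Since 1 of the 3 arrays of 0 h was below the floor and the others close to it, folds against 0 h may understate the change and depend on the floor. Raising the floor to the 20th percentile gave a log2 change of 2.72 at 6 h over 0 h, and of 1.29 in place of 1.79 at 2 h over 0 h. Here 11.1% of all probe sets were called and 3 of the 6 members. By single steps it rose 3.46-fold at 2 h over 0 h (256 ± 59.3, against 72.9 ± 13.6; adjusted p = 5.1e-05) and 1.78-fold at 4 h over 2 h (453 ± 82.9, against 256 ± 59.3; adjusted p = 0.077). The second of these calls ended with no filter (adjusted p = 0.11), in the fit to the arrays of the compared stages alone (0.12) and on leaving out, at 2 h, replicate 2 (0.49) or 3 (0.13) and, at 4 h, replicate 1 (0.4) or 2 (0.21). At 4 h against 2 h 2.75% of all probe sets were called. The step to 6 h, 1.51-fold, was not called (adjusted p = 0.31), with arrays at 6 h between 417 and 1046. Without the lowest of them, replicate 2, its log2 change was 0.94 in place of 0.59 and it was called (adjusted p = 0.015).

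*Cyp18a1* then fell. It was 2.77-fold lower at 10 h (289 ± 35) than at 8 h (798 ± 82.6), with a log2 change of -1.47 (SE 0.25, adjusted p = 0.00024), a step at which 5.41% of all probe sets and 1 of the 6 members were called. A further fall of 1.82-fold followed at 12 h (159 ± 24.9, against 289 ± 35 at 10 h; adjusted p = 0.033), where 4.88% of all probe sets were called. This second fall missed the threshold when replicate 1 of 10 h (adjusted p = 0.15) or replicate 2 of 12 h (0.13) was left out. At 12 h *Cyp18a1* was still 2.18-fold above 0 h (adjusted p = 0.0018; log2 change 0.62 with the higher floor, in place of 1.12) and 1.68-fold above -18 h (adjusted p = 0.017). At those comparisons 13.2% and 29.1% of all probe sets were called.

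Around pupariation *Cyp18a1* was 1.65-fold lower at 0 h (72.9 ± 13.6) than at -4 h (122 ± 26.4; adjusted p = 0.066), a step with 7.98% of all probe sets called and 1 member. A floor at the 20th percentile ended the call (log2 change -0.23 in place of -0.73, adjusted p = 0.5), as did the fit to the arrays of both stages alone (adjusted p = 0.15) and leaving out -4 h replicate 2 (0.14) or, at 0 h, replicate 1 (0.17) or 3 (0.18). At 6 h against 4 h and 8 h against 6 h, where 3.33% and 5.26% of all probe sets were called, none of the 6 members was called by limma on all arrays. At an unadjusted p under 0.05 there were 3 of the 6 at 6 h (*dib*, *Cyp18a1* and the dimmer *E23* probe set; 11.1% of all probe sets) and 1 at 8 h (*sad*; 14.1% of all probe sets). At 6 h against 4 h the brighter *E23* probe set changed by -0.62 with no overlap (adjusted p = 0.5). It was called without both deviating larval arrays (adjusted p = 6.9e-06) and with the compared stages fitted alone (0.016), and the dimmer was called with array weights (-0.67).

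**Figure D3:**
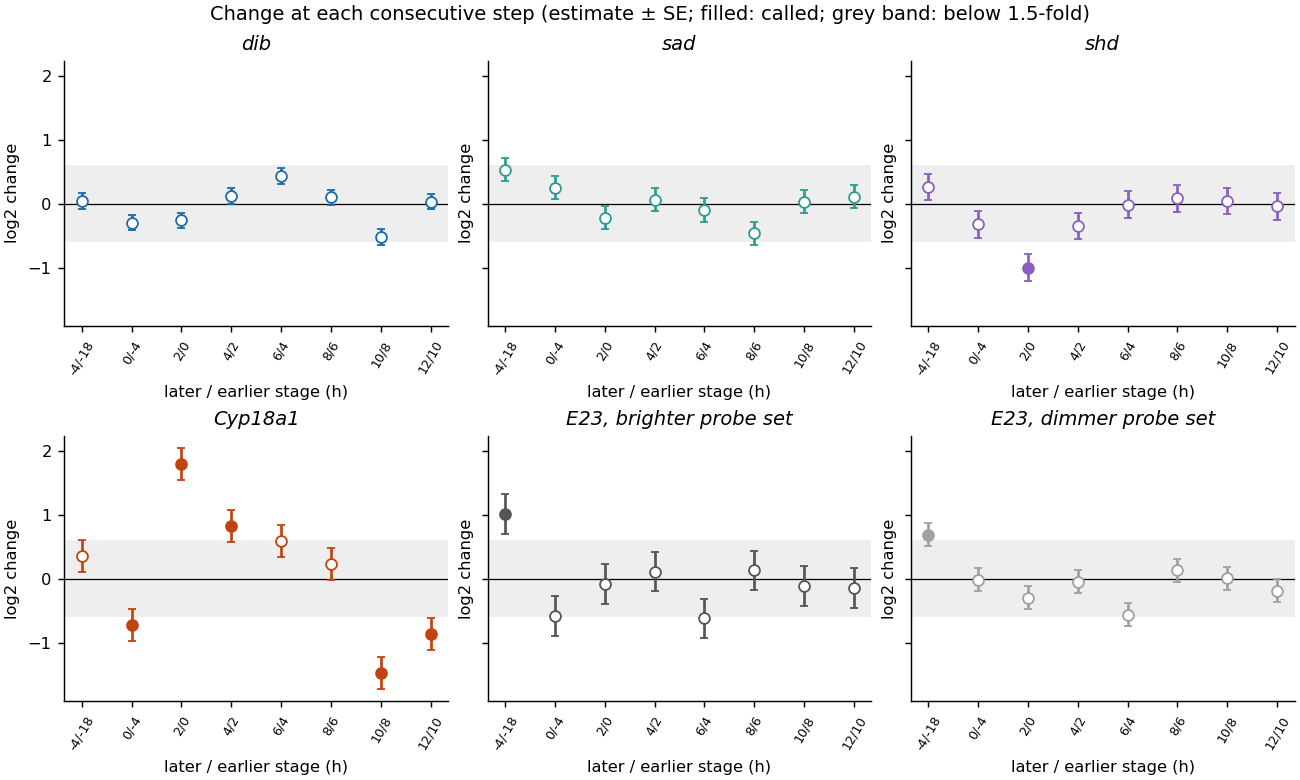
Log2 change (later minus earlier stage, ± SE) of each probe set at the 8 consecutive steps; filled points were called and the grey band marks changes under 1.5-fold. *Cyp18a1* had 5 of the 8 calls, *shd* 1 and the *E23* probe sets 1 each.

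*E23* rose in the late larva and was lower from 6 h on. The brighter probe set gave 428, 1749 and 468 at -18 h, 1991, 1188 and 1200.3 at -4 h, 932, 1029 and 895 at 0 h, 847, 942 and 905 at 2 h, and 977, 1001 and 924 at 4 h. It gave 652, 577 and 658 at 6 h, 747, 693 and 626 at 8 h, 662, 627 and 618 at 10 h, and 568, 579 and 575 at 12 h. Apart from 1 of the larval arrays at -18 h, the -4 h arrays stood above all others, and the 0, 2 and 4 h arrays above those of 6 to 12 h. The dimmer probe set gave 80.2, 59.2 and 99.2 at -18 h, 89.8, 150.04 and 149.6 at -4 h, and 113, 148 and 116 at 0 h. It lay between 91.1 and 108 at 2 and 4 h and between 58.9 and 82.9 from 6 to 12 h, again with no overlap between these blocks.

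Over the late larval rise both probe sets of *E23* were called higher, and they were the 2 calls of the 6 members at a step where 13.5% of all probe sets were called. The brighter stood at 1460 ± 460.2 at -4 h, against 882 ± 752 at -18 h (2.01-fold, log2 change 1.01, SE 0.31, adjusted p = 0.024). The dimmer stood at 130 ± 34.7 at -4 h, against 79.5 ± 20 at -18 h (1.61-fold, log2 change 0.69, SE 0.18, adjusted p = 0.0067). In the fit to these 6 arrays alone neither was called (adjusted p = 0.52 and 0.33).

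The same 2 arrays separated the probe sets of *E23*. On -18 h replicate 2 and -4 h replicate 1 the brighter probe set had the highest value of its stage and the dimmer the lowest. Relative to the mean of the other arrays of its stage (log2), -18 h replicate 2 was at 1.97 by the brighter and -0.59 by the dimmer probe set, and -4 h replicate 1 at 0.74 and -0.74. *sad* and *shd* also had their lowest value of the stage on both arrays. Without both arrays the change of *E23* between -4 and -18 h was 1.42 by the brighter (SE 0.09, adjusted p = 3.3e-10) and 0.75 by the dimmer probe set (SE 0.14, adjusted p = 0.00037). Without -18 h replicate 2 alone the values were 1.66 and 0.5, the second of them not called, and the dimmer also fell below the fold limit without -4 h replicate 2 or 3 (0.57 each). The call of the brighter was lost under quantile normalization (0.75, adjusted p = 0.13) and without -18 h replicate 1 (0.65) or 3 (0.71), and that of the dimmer with the floor at the 20th percentile (0.36) and with array weights (0.58). Over all 27 arrays the probe sets correlated at 0.45 and over the 9 stage means at 0.93, values that share the arrays and are given as a description.

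Later declines of *E23* were called in the dimmer probe set, which lies near the floor. At 6 h it was 1.88-fold lower than at 0 h (66.2 ± 7.3, against 126 ± 19.6; adjusted p = 0.00054) and at 12 h 1.95-fold lower (63.6 ± 4.35, against 126 ± 19.6; adjusted p = 0.00026). With the floor at the 20th percentile both were -0.28 (log2) and were not called. The brighter probe set stood at 629 ± 45.1 at 6 h, against 952 ± 69.2 at 0 h, 1.51-fold lower with no overlap, and was not called (adjusted p = 0.25). The spread is shared over all stages, and without both deviating larval arrays the same log2 change of -0.6 had an adjusted p of 2.8e-06 (0.0062 with the compared stages alone). At 12 h it stood at 574 ± 5.38, against 952 ± 69.2 at 0 h, 1.66-fold lower with no overlap and not called (log2 change -0.73, adjusted p = 0.12). That change was called without both deviating arrays (adjusted p = 1.5e-07), with the compared stages alone (0.0016), under median scaling (0.094) and with array weights (2.5e-09). At 10 h both were lower than at -4 h, the brighter 2.23-fold (636 ± 23.2, against 1460 ± 460.2; adjusted p = 0.0091) and the dimmer 1.73-fold (73 ± 3.75, against 130 ± 34.7; adjusted p = 0.0018). At that comparison 14.3% of all probe sets and 4 of the 6 members were called, the dimmer not with the higher floor (-0.36). Against -18 h, the 0 h arrays of the dimmer were 1.6-fold higher (126 ± 19.6, against 79.5 ± 20; adjusted p = 0.0035), a call that ended at a log2 change of 0.49 without -18 h replicate 2, of 0.55 without 0 h replicate 2, of 0.44 with array weights, of 0.58 with log2(value + 16) and of 0.28 with the higher floor. The brighter changed by 0.43 (adjusted p = 0.25) there, and by 1.09 with a call (adjusted p = 5.8e-06) without -18 h replicate 2. At 12 h against -18 h it changed by -0.3 (adjusted p = 0.45), and by -0.66 with a call without -18 h replicate 1.

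The list of transport and inactivation genes had 5 members, all measured, and 4 changed between stages, against 49.5% of all probe sets tested. *Atet*, which encodes an ABC transporter that loads ecdysone into vesicles of the prothoracic gland, rose 3.38-fold at -4 h (927 ± 211, against 269.5 ± 14.5 at -18 h; adjusted p = 1.2e-09). It was highest at 0 h (1023) and 3.1-fold lower at 6 h than at 0 h (330.2, against 1023; adjusted p = 1.7e-09). *Oatp74D*, which encodes the importer that carries ecdysteroids into target cells, rose 1.84-fold at 0 h (681, against 374 at -4 h; adjusted p = 0.069). It was highest at 6 h (1081 ± 388) and 1.94-fold lower at 10 h (536, against 1081 at 6 h; adjusted p = 0.035). *Eo* (ecdysone oxidase) spanned 1.3-fold, below the fold limit (adjusted p = 0.014). At 10 h against 6 h *Cyp18a1* and *Oatp74D* were the 2 calls of this list, both lower, where 9.45% of all probe sets and 1 of the 6 members were called.

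**Figure D4:**
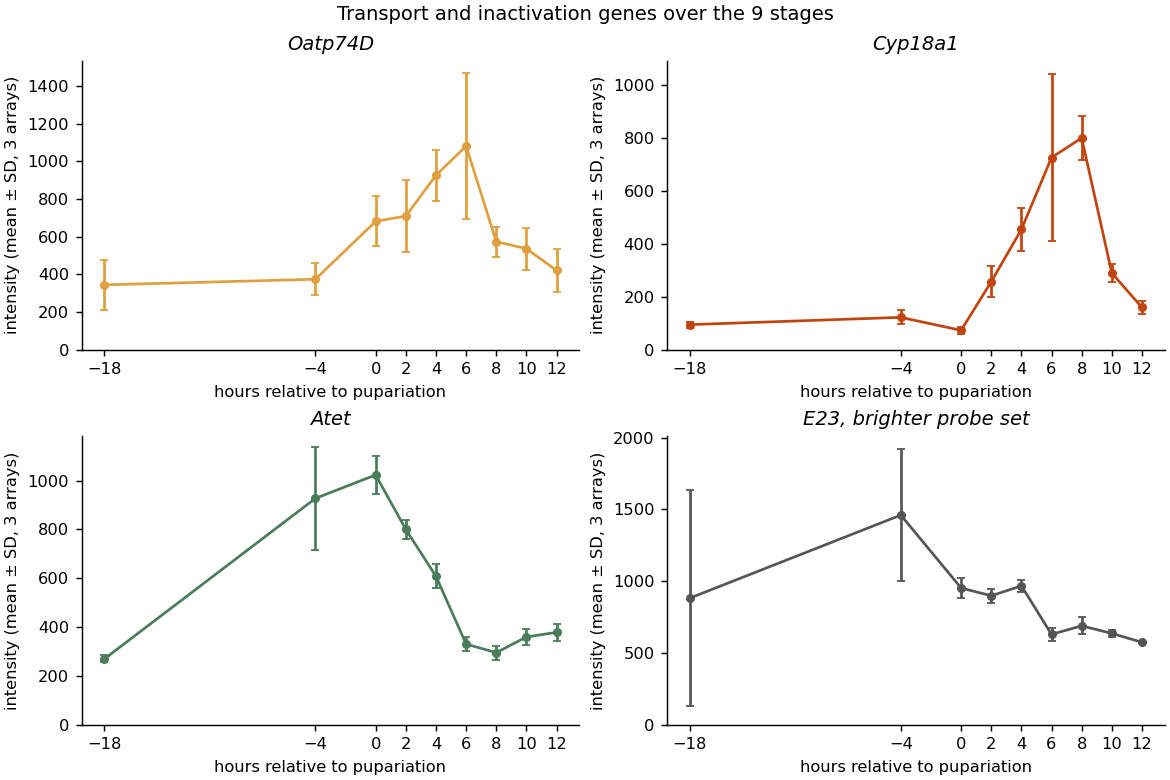
Intensity (mean ± SD of 3 arrays) against hours relative to pupariation for 4 transport and inactivation genes, each on its own axis. *Atet* was highest at 0 h, *Oatp74D* at 6 h, *Cyp18a1* at 8 h and the brighter *E23* probe set at -4 h.

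Of the 6 listed genes that supply sterols and electrons to the synthesis enzymes, 5 were measured and tested, and 4 rose between -18 and -4 h, where 13.5% of all probe sets were called. The sterol transfer gene *Npc2a* rose 2.63-fold (3069 at -4 h, against 1189 at -18 h; adjusted p = 5.4e-08), the START-domain gene *Start1* 2.05-fold (699, against 345; adjusted p = 0.0021), the cholesterol transporter *Npc1a* 1.88-fold (629.6, against 337; adjusted p = 0.0035) and the ferredoxin *Fdx2* 1.5-fold (849, against 562; adjusted p = 0.00015). The SDs at -18 and -4 h were 290 and 246 for *Npc2a* and 103 and 150 for *Start1*. For *Npc1a* they were 101 and 180, and for *Fdx2* 50.6 and 120. These genes were not refitted without the 2 deviating larval arrays, which belong to this step. The median of this list was 0.91 (log2) at that step and 0.01 over all probe sets tested. The remaining gene, the ferredoxin *Fdx1*, changed by -0.24 and was not called (adjusted p = 0.036, 1.18-fold). At 0 h against -4 h, where 7.98% of all probe sets were called, 2 of the 5 were called, *Npc1a* (1.61-fold) and *Start1* (1.66-fold), both higher. From 2 h on none of the 5 was called at any consecutive step, where 2.64% to 5.41% of all probe sets were called.

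Of 13 listed regulators of ecdysteroid synthesis, 11 had a probe set and 10 were tested. Over the 9 stages 8 of the 10 changed, against 49.5% of all probe sets tested. At 0 h against -18 h 3 were called higher and 2 lower, where 33.4% of all probe sets were called. The 8 consecutive steps, at which 2.64% to 13.5% of all probe sets were called, held 1 call. This was *mld* (molting defective, a zinc finger factor of the prothoracic gland), which rose 1.86-fold at 4 h (686, against 367 at 2 h; adjusted p = 0.018). At 6 h against 0 h *mld* (1.72-fold, adjusted p = 0.014) and the zinc finger gene *ouib* (1.96-fold, adjusted p = 0.0085) were higher. The gene of the prothoracicotropic neuropeptide, *Ptth*, was highest at 12 h (418), 1.69-fold above 0 h (adjusted p = 0.0051). Against -18 h (316 ± 101) it was 1.36-fold higher at 12 h and not called (adjusted p = 0.061). *ecd* (ecdysoneless) was highest at 0 h (395) and *vvl* (ventral veins lacking, a POU factor) at 6 h (862.5), with spans of 1.71- and 1.62-fold (adjusted p = 0.00059 and 0.0063).

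The 2 rises of 20E were named after the known hormone pulses, since no titer was measured here. They were set against each other in 1 contrast, the change at 10 h over 6 h minus that at -4 h over -18 h. The 4 stages share no array, and the larval interval is longer than the prepupal one. Of all probe sets 22.1% were called and of the members 2, *Cyp18a1* and *sad*, both with a lower change over the prepupal rise. *Cyp18a1* changed by -1.24 (log2) over the prepupal rise and by 0.36 over the larval rise, a difference of -1.59 (SE 0.35, adjusted p = 0.0016). Its prepupal change was called (adjusted p = 0.00088) and its larval change was not (adjusted p = 0.35). It started from 725 ± 315 at 6 h and from 94.3 ± 11.5, nearer the floor, at -18 h. *sad* changed by -0.43 over the prepupal and by 0.53 over the larval rise (difference -0.96, SE 0.26, adjusted p = 0.0088). Neither change of *sad* was itself called (adjusted p = 0.15 and 0.043, both below the fold limit). Without both deviating larval arrays the differences were -1.66 for *Cyp18a1* and -0.82 for *sad*, both called, and without -18 h replicate 2 alone -1.54 and -0.67. *dib* differed by -0.45 (95% interval -0.82 to -0.09, adjusted p = 0.068), below the fold limit. *shd* gave 0.12 over the prepupal and 0.26 over the larval rise, and the interval of the difference was -0.76 to 0.48.

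*E23* differed by -0.99 (brighter, 95% interval -1.91 to -0.07) and -0.56 (dimmer, -1.07 to -0.04) between the rises, and neither was called (adjusted p = 0.12 each). Over the prepupal rise it changed by 0.02 and 0.14. Without both deviating larval arrays the differences of *E23* were -1.4 (adjusted p = 1.1e-08) and -0.61 (0.011), which made 4 member calls in place of 2. Without -18 h replicate 2 alone the brighter gave -1.64 (adjusted p = 1.6e-06), and the dimmer was called without -18 h replicate 3 (-0.73) or -4 h replicate 1 (-0.8). Of the 18 listed 20E cascade regulators 15 were measured. At 10 h against 6 h 3 of them rose and 1 fell, where 9.45% of all probe sets were called. *Sox14*, a transcription factor of this list, rose 3.82-fold there (adjusted p = 1.3e-13) and 4.64-fold at -4 h against -18 h (adjusted p = 4.3e-14). In the difference between the rises *Sox14* gave -0.28 and was not called. Of the 15 regulators 3 were called in that contrast, all lower (*Eip78C* at -2.75, *Hr3* at -1.82 and *Hr4* at -1.59), where 22.1% of all probe sets were called.

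**Figure D5:**
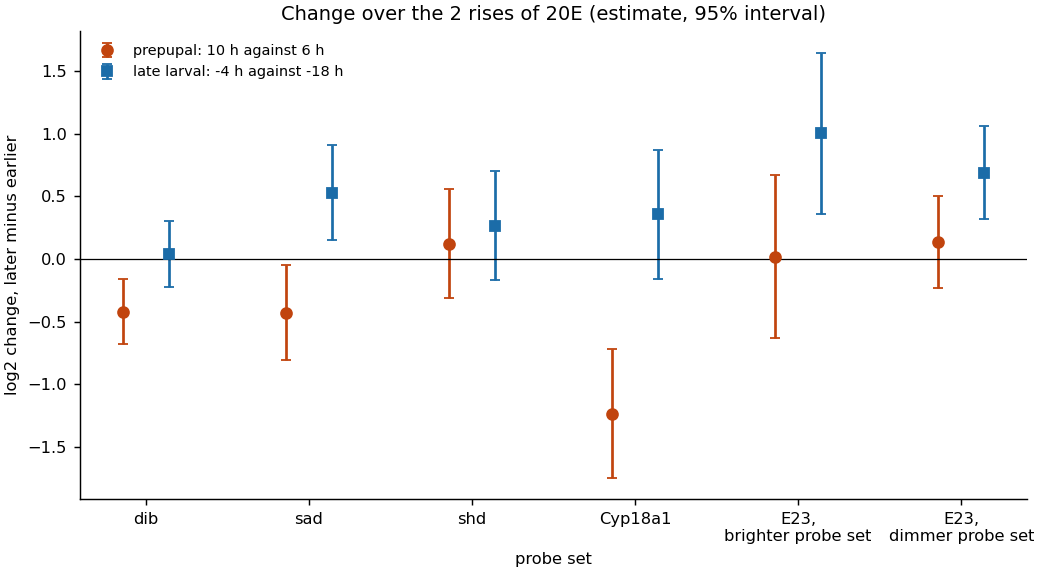
Log2 change with 95% interval over the prepupal rise (10 h against 6 h, circles) and the late larval rise (-4 h against -18 h, squares) for each probe set. *Cyp18a1* lay at -1.24 and 0.36, and *sad* at -0.43 and 0.53.

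Over the 9 stage means *shd* and *Cyp18a1* ran most nearly opposite to each other of the 15 pairs of probe sets, with a Pearson correlation of -0.81. *dib* and *sad*, whose products act in succession, correlated at -0.29, and *dib* and *shd* at 0.32. *sad* correlated with the *E23* probe sets at 0.62 and 0.71. These points share arrays and are few, and they are given as a description. Of the 20E cascade regulators, *ftz-f1*, which encodes a nuclear receptor of the mid prepupa, was also highest at 8 h (1236, after 458 at 6 h and 95 at 4 h). *Eip78C*, a nuclear receptor gene, was highest at 0 h (1021), when *Cyp18a1* was lowest. *Sox14* and *Blimp-1*, also of this list, were highest at 10 h (2782) and 2 h (901), and other regulators at -18, -4, 0, 2, 4 or 10 h. A relation of any of them to *Cyp18a1* was not tested.

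Genes with the most similar profiles were sought among 3090 probe sets that had 1 symbol, passed the F-test and spanned at least 2-fold, by Pearson correlation over the 9 stage means. Nearest to *shd* were *Cyp4ad1* (a P450 gene, 0.995), CG7017 (0.993) and *bin* (a forkhead factor, 0.991). Their means were 188, 1216 and 356 at 2 h, against 287, 2448 and 576 at 0 h. Nearest to *Cyp18a1* were CG6357 (0.967), CG33110 (0.965) and *mspo* (0.964). CG33110 and *mspo* were, like *Cyp18a1*, highest at 8 h and lowest at 0 h. The means of CG6357 were below the floor at -18, -4 and 0 h (17.2, 25.1 and 51.2), so its likeness there depends on the floor. Nearest to the brighter *E23* probe set were *grsm* (0.901), *spirit* (0.896) and *Sply* (0.889), all highest at -4 h. Its -18 h mean includes replicate 2 (1749, against 428 and 468), and the search was not repeated without that array. By Spearman correlation, *grsm* stood at rank 221 for *E23*, *Cyp4ad1* at rank 32 for *shd*, and CG33110 and *mspo* at rank 1 for *Cyp18a1*.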

How the data were processed

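Per the study's methods, the authors hybridized biotin-labelled cRNA and used dChip 1.2 to normalize the arrays and compute expression values. What they deposited is 1 linear intensity for every probe set on every array, without pooling. Triplicates are described as independent experiments. The p-values rest on a spread between triplicates that is estimated once per probe set and shared by all stages. The median SD of a probe set (log2) was 0.289 at -18 h and 0.248 at -4 h, against 0.0905 to 0.175 from 0 h on. The p-values may thus be too small for larval comparisons and too large for later ones. Of 13966 probe sets, 12443 had 1 symbol in the platform annotation, 327 several and 1196 none, and 12394 were matched through gene number to Release 6 names. Before log2, values under 60.26, the 10th percentile, were raised to this floor, and 1112 probe sets above it in all 3 arrays of no stage were left out. Precision is limited by the number of arrays.

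Stages were compared with limma 3.58.1 in R 4.3.3 (lmFit, eBayes) on the 27 arrays with a term for stage alone and 18 residual degrees of freedom, in 15 contrasts and 1 F-test. This stood in for the SAM test of the methods. Calls required a Benjamini-Hochberg adjusted p under 0.1 over all probe sets and 1.5-fold. A fold is 2 to the power of the fitted log2 change. The code was tested on simulated data, and figures were drawn with matplotlib 3.10.9. For a listed gene with several probe sets the brightest was used. All members were named throughout, with up to 4 genes per list by the F-test, up to 3 by adjusted p at a step the text turns on, and 3 similar genes per member spanning 2-fold. Members and lists were chosen with earlier results of these data known.

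The alternatives were quantile and median scaling, the floor at the 20th percentile, log2(value + 16), no filter or one at the 25th percentile, array weights (which stopped short of full convergence), the compared stages alone, a replicate block, and leaving out arrays. They were recorded for the member probe sets only, so calls of the other listed genes were not checked in this way.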

Additional observations from a re-analysis of the deposited data

Results flagged for a closer look

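The change over the prepupal rise (10 h against 6 h) differed from that over the late larval rise (-4 h against -18 h) for *Cyp18a1*, by -1.59 on the log2 scale, and for *sad*, by -0.96. Both were picked out because the difference itself passed the limma test, with adjusted p = 0.0016 and 0.0088. Of all probe sets 22.1% were called in this contrast. For *sad*, neither the prepupal nor the larval change was called by itself, and for *Cyp18a1* only the prepupal change was. Without both deviating larval arrays the differences were -1.66 for *Cyp18a1* and -0.82 for *sad* (adjusted p = 0.0024 and 0.002). With 3 arrays a stage, single samples were not tested as outliers.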

How the results depend on the processing

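Over the alternatives, the count of members changed over the 9 stages stayed at 5 or 6 and that over the 6 longer comparisons lay between 11 and 17, against 15. The 8 calls over the consecutive steps became 5 when each step was fitted to its own 6 arrays, and the 2 calls in the difference between the rises became 4 without both deviating larval arrays. Leaving out each of the 27 arrays in turn gave 5 to 6, 6 to 9, 15 to 17 and 2 to 3 calls for the F-test, the steps, the longer comparisons and the difference. No member value turned its direction where it was called, in any alternative. Of 576 single values with 1 array left out, 545 kept their side of the limits, 17 lost a call and 14 gained one. Among 90 single values, the floor at the 20th percentile ended 6 calls, and array weights, whose estimate stopped before full convergence, ended 3 and added 7. With the filter at the 25th percentile the dimmer *E23* probe set was not tested. The fit with the replicate number as a block kept the 8, 15 and 2 calls and changed none of 90 values' calls. Same-numbered arrays were not treated as pairs, since the triplicates are described as independent experiments. Their deviations were nonetheless more alike. Of 108 correlations between same-numbered arrays 57 exceeded 0.1 (median 0.17), against 61 of 216 between different numbers (median -0.06). Of 27 arrays, 14 correlated best with their own number, a hint from the data and not from the design. Signal over background limits *shd* from 4 h on, *Cyp18a1* at 0 h and the dimmer *E23* probe set at -18 h and from 6 h on.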
